A study of Saccharomyces cerevisiae with 34 samples.

Results

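Mediator and the general transcription factors bring RNA polymerase II to promoters, and this report follows the budding yeast genes that encode them, leaving TFIIH aside. The set holds 45 genes of the 5368 Saccharomyces cerevisiae open reading frames counted, picked by systematic name and not by any measured value. It has 7 genes of the Mediator head, 9 of the middle with its scaffold subunit, 5 of the tail and 2 of the kinase module. It also has 4 genes for the TATA-binding protein (TBP), TFIIA and TFIIB, 5 for TFIIE and TFIIF, and 13 for the TBP-associated factors of TFIID.

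The cells were BY4741 yeast in 3 genotypes: kin28is, kin28as and wild type (WT). KIN28 encodes the TFIIH kinase that phosphorylates the tail of RNA polymerase II, and both mutant alleles are made to take up bulky ATP analogs. CMK, 1-NAPP-1 or the solvent DMSO was given for 1 h, at 2 µM in replicate 1 and at 5 µM in every later replicate, and all cultures but one per RNA fraction were labelled with 5 mM 4-thiouracil (4tU) for the last 6 min. CMK is known as an irreversible inhibitor, which reacts with the kin28is enzyme, and 1-NAPP-1 as a reversible one. Nascent RNA was the 4tU-labelled RNA pulled down on streptavidin, and total RNA was sequenced without the pull-down. Fission yeast (Schizosaccharomyces pombe) cells were mixed in before lysis, 1 for every 6 budding yeast cells, as a yardstick.

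There were 19 nascent libraries: kin28is with 4 CMK, 3 1-NAPP-1 and 3 DMSO, kin28as with 1 1-NAPP-1 and 1 DMSO, and WT with 2 CMK, 2 1-NAPP-1, 2 DMSO and 1 DMSO without 4tU. The 15 total RNA libraries had 2 per treatment in kin28is and in WT, the same kin28as pair and 1 WT DMSO library without 4tU. Depth ran from 517887 to 15568445 reads. The labels do not say that replicates were separate cultures, and the p-values therefore reflect only how these samples vary, perhaps technically. In nascent RNA the budding yeast reads per fission yeast read were far more numerous in the replicate 1 set than in later replicates, at 32.2 against 1.21 and 1.72 for kin28is DMSO, so nascent tests used the 5 µM libraries alone. The authors' counts are given on 3 scales: S. pombe-scaled reads, a gene's reads per 1000000 S. pombe reads, which follow the amount of RNA per yardstick, CPM, a gene's reads per 1000000 S. cerevisiae reads, which follow its share of budding yeast RNA, and CPM per kilobase of coding sequence (RPKM), which compare genes.

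At a promoter TBP, carried by TFIID, binds first, TFIIA and TFIIB join it, and TFIIF brings the polymerase, followed by TFIIE and TFIIH. Mediator contacts the polymerase through its head and middle, receives signals from activators through its tail, and carries a detachable kinase module. In yeast TFIID serves most promoters, including many without a canonical TATA box, while the coactivator SAGA has its largest role at promoters of stress-induced genes.

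The promoters of these genes are shown for the 3 most abundant members. Of these, TOA2 and SUA7 also lay near opposite ends of the nascent changes with CMK below. Each run covers 250 bases before the start codon and 50 bases from it, from the RefSeq R64 assembly, on the coding strand from 5′ to 3′, and capitals mark TATAAA or TTACCCG on either strand (TTTATA or CGGGTAA when read on the other). TTACCCG is the core that the factor Reb1 is known to bind. SUA7 (chrXVI:709851-710150, plus strand) encodes TFIIB, TOA2 (chrXI:329916-330215, plus strand) the small subunit of TFIIA, and SPT15 (chrV:465053-465352, plus strand) TBP.
SUA7: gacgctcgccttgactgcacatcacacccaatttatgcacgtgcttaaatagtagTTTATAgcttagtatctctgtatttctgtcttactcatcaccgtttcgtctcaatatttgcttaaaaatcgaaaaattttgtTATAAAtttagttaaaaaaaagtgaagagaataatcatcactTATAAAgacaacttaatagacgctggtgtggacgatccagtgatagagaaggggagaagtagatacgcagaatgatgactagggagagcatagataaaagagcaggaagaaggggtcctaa
TOA2: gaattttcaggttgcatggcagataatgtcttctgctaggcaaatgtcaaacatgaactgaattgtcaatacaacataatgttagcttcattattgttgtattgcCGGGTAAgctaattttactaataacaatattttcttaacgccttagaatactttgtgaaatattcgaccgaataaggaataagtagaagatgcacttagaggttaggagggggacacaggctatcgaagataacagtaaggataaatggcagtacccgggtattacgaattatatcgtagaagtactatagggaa
SPT15: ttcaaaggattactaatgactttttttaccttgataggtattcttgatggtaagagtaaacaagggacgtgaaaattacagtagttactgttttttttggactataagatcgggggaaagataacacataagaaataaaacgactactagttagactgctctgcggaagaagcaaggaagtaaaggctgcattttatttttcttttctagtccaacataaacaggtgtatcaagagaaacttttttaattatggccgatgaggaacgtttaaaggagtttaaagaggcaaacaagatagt
The SUA7 window held 3 TATAAA matches, the TOA2 window 1 TTACCCG match and the SPT15 window neither. Over the 45 windows TATAAA occurred in 14 (31.1%), against 44.1% of 5236 windows of the same length before all genes. TTACCCG occurred in 9 (20.0%), against 7.73% of all windows. A match is only a run of letters and does not show a bound site.

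In uninhibited WT cells the transcripts for TBP, the small TFIIA subunit and TFIIB were the most abundant of the set. In total RNA from WT DMSO cultures the median member stood at 80.1 RPKM (mean of 2 libraries per gene), against 60.3 RPKM for all 5239 open reading frames with a known length, and 27 of 45 members lay above that value. SPT15 was the highest, at 559 and 564 RPKM. TOA2 followed at 284 and 299 RPKM and SUA7 at 290 and 268 RPKM, and these neighbours overlapped. The lowest were SRB8 at 28.3 and 27.2, SSN2 at 31.3 and 25.4, and TAF7 at 37.1 and 28.1 RPKM, which also overlapped. SRB8 and SSN2 are the long genes of the Mediator kinase module and TAF7 encodes a TFIID subunit that pairs with Taf1.

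The main question was how the machinery's own genes fared when the TFIIH kinase was blocked, read first in nascent RNA of kin28is cells at 5 µM. With CMK 34 of the 45 genes fell against DMSO and none rose (edgeR quasi-likelihood test, Benjamini-Hochberg adjusted p under 0.05 over 5217 genes), where 71.7% of all genes tested fell and 0.249% rose. The median member changed by -1.71 on the log2 scale, 3.27-fold lower, and the median of all genes by -1.69. Summed over the 45 genes, the 3 CMK libraries held 4698, 4173 and 2434 S. pombe-scaled reads, against 9975 and 13381 in the 2 DMSO libraries. The WT DMSO library without 4tU held 812. All 3 CMK libraries lay below both DMSO libraries in that sum and, gene by gene, in 41 of the 45 genes. That count was not made over all genes, so it does not set the 45 apart. In such bulk samples fewer cells and less RNA per cell cannot be told apart.

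TBP, TFIIA and TFIIB gave both the deepest and nearly the shallowest change. TOA2 (YKL058W, chromosome XI, 330166 to 330534) stood at 17.5, 33.4 and 14.0 S. pombe-scaled reads with CMK, against 125 and 180 with DMSO. The groups did not overlap, and the change was -2.86 ± 0.63 (log2 ± SE, adjusted p = 0.00012), 7.26-fold lower and the most negative of the 45. These values rest on 11, 25 and 35 reads in the CMK libraries, and the library without 4tU gave 10.9. SPT15 (YER148W, chromosome V, 465303 to 466025) stood at 190.5, 172 and 113 with CMK, against 567 and 706 with DMSO. It too was without overlap and fell 4.07-fold (-2.02 ± 0.54, adjusted p = 0.00103). SUA7 (YPR086W, chromosome XVI, 710101 to 711138) stood at 511, 303 and 230 with CMK, against 504 and 600 with DMSO. One CMK library lay between the DMSO values, and the change of -0.68 ± 0.54 did not pass (adjusted p = 0.237). TOA1, the large subunit of TFIIA, was not called either, at -1.24 ± 0.68 (adjusted p = 0.0883).

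In the Mediator head, the part that binds the polymerase, 4 of 7 genes fell. SRB4, the central head subunit (YER022W, chromosome V, 198812 to 200875), stood at 63.5, 90.8 and 44.5 S. pombe-scaled reads with CMK, against 213 and 289 with DMSO. The groups were apart, and it fell 3.86-fold (-1.95 ± 0.58, adjusted p = 0.00259). SRB2 had the most negative value of the head, at -2.32 ± 1.11, and was not called (adjusted p = 0.0514), with 1, 2 and 8 reads in the CMK libraries. MED11 (-1.68, adjusted p = 0.0564) and MED6 (-0.80, adjusted p = 0.202) were not called. MED6 gave 151, 94.8 and 53.7 with CMK, against 134 and 208 with DMSO, so that its groups overlapped.

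In the middle, which joins head and tail, 7 of 9 genes fell, led by MED7 at -1.96 ± 0.65 (adjusted p = 0.00643). NUT2 (-1.06, adjusted p = 0.137) and CSE2 (-1.26, adjusted p = 0.158) were not called. In the tail, where activators dock, 4 of 5 fell: GAL11, the best known activator target, changed by -2.05 ± 0.53 (adjusted p = 0.000835), and PGD1 at -1.24 was not called (adjusted p = 0.0602). Both kinase module genes fell. SSN2 stood at 69.8, 136 and 72.9 S. pombe-scaled reads with CMK, against 334 and 587 with DMSO. It fell 5.00-fold without overlap (-2.32 ± 0.56, adjusted p = 0.000357), and SRB8 changed by -2.22 ± 0.55 (adjusted p = 0.000504). The kinase and cyclin that complete this module, SSN3 and SSN8, were split, with SSN3 lower at -1.65 (adjusted p = 0.0086) and SSN8 not called at -0.88 (adjusted p = 0.163).

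All 5 genes of TFIIE and TFIIF fell. TAF14, a small TFIIF subunit that TFIID and several chromatin complexes share, stood at 28.6, 64.1 and 22.4 S. pombe-scaled reads with CMK, against 151 and 226 with DMSO. Its groups were apart, and it fell 5.02-fold (-2.33 ± 0.60, adjusted p = 0.00071). TFG2, the middle subunit of TFIIF, was the least negative of the class at -1.62 ± 0.58 (adjusted p = 0.0101).

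Of the 13 TFIID genes 10 fell. TAF12, a histone-fold subunit shared with SAGA, had the most negative value at -1.99 ± 0.56 (adjusted p = 0.00171). TAF7 (-0.86, adjusted p = 0.204), TAF11 (-1.11, adjusted p = 0.085) and TAF13 (0.39 ± 0.86, adjusted p = 0.675) were not called. TAF11 and TAF13 encode a histone-fold pair that touches TBP. TAF13 was the sole member with a value above 0, and it had 50.8, 20.0 and 6.81 S. pombe-scaled reads with CMK, against 16.6 and 21.2 with DMSO. Its CMK libraries lay above, between and below the DMSO libraries, on 32, 15 and 17 reads. Without CMK replicate 2 its change was -0.60.

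**Figure D1:**
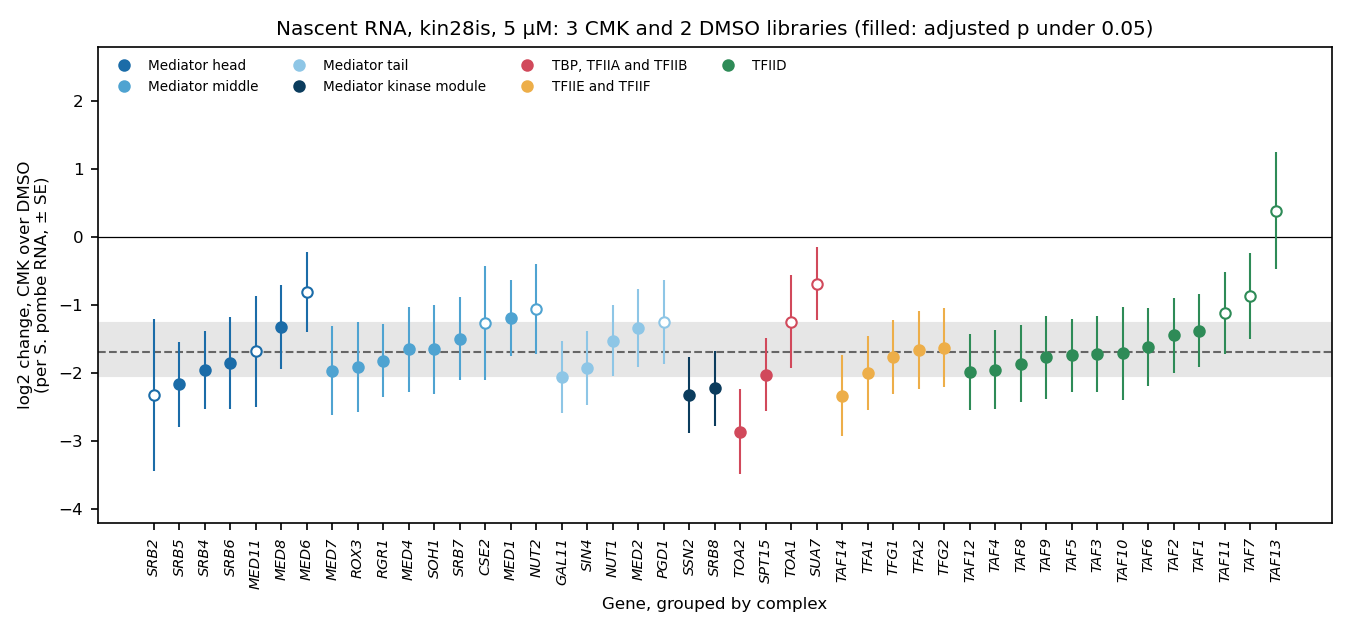
Change of nascent RNA in kin28is cells given 5 µM CMK over DMSO for each of the 45 genes, as log2 ± SE per S. pombe RNA from the edgeR fit (3 CMK and 2 DMSO libraries), grouped by complex. Filled points have an adjusted p under 0.05, the dashed line is the median of all 5217 genes tested (-1.69), and the grey band spans their 25th to 75th percentile. TOA2 lies lowest at -2.86 and TAF13 highest at 0.39.

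The other genes of the initiation machinery moved in the same direction, as did most genes tested. The counts by class and by list are to be read beside the share of all genes that fell, given above. The median of all genes was -1.69. RNA polymerase II subunit genes fell in 12 of 12 (median -2.07), SAGA genes outside the TAFs in 14 of 14 (-2.12), the TBP regulators MOT1, BUR6 and NCB2 in 3 of 3 (-1.88) and TFIIH genes in 10 of 11 (-1.54), with TFB5 not called. KIN28, the targeted kinase, changed by -2.19 ± 0.65 (adjusted p = 0.00276). The alleles alter the protein, so its RNA does not check the genotype.

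The calls depended on the yardstick and on a few libraries. Scaled to the other S. cerevisiae genes, 0 of 45 members were called by edgeR (4 higher and 1 lower at an unadjusted p under 0.05), where 2.09% of genes were called lower and 2.4% higher, and the members' median was -0.03. Without DMSO replicate 3, which left 1 DMSO library, 2 of 45 were called, and with the 2 µM libraries added, in a fit of all 16, 0 were. With the replicate number as a block in the 5 µM fit, 21 of 45 were called lower and 0 higher, where 47.7% of genes were lower and 0.364% higher. TOA2 (adjusted p = 0.00397), SPT15 (0.015), SRB4 (0.0229), SSN2 (0.00739) and TAF14 (0.0106) kept their calls under the block, and TFG2 (0.0626) did not.

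As shares of budding yeast RNA the members' relative changes lay on both sides of 0, with TAF13 and SUA7 at the upper end and TOA2 at the lower. SUA7 stood at 996, 596 and 830 CPM with CMK at 5 µM, against 417 and 348 CPM with DMSO. All 3 CMK libraries were higher, and the library without 4tU gave 164 CPM. The relative change of 0.99 ± 0.28 missed the threshold (adjusted p = 0.0624). MED6 came close as well, at 0.85 ± 0.25 (adjusted p = 0.0774), with 294, 186 and 194 CPM with CMK, against 111 and 121 CPM with DMSO. TOA2 stood at 34.0, 65.6 and 50.6 CPM with CMK, against 104 and 104 CPM with DMSO. It was lower in all 3, at -1.11 ± 0.30 relative to other genes (adjusted p = 0.0526). TAF13 stood at 99.0, 39.4 and 24.6 CPM with CMK, against 13.8 and 12.3 CPM with DMSO, and at 40.3 CPM without 4tU. As shares in CPM, reads recovered without 4tU thus reached the level of the CMK libraries for TAF13 and for TOA2 (75.6 CPM). In S. pombe-scaled reads the library without 4tU lay below all 3 CMK libraries for both genes. The part of such reads in these results was not tested.

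**Figure D2:**
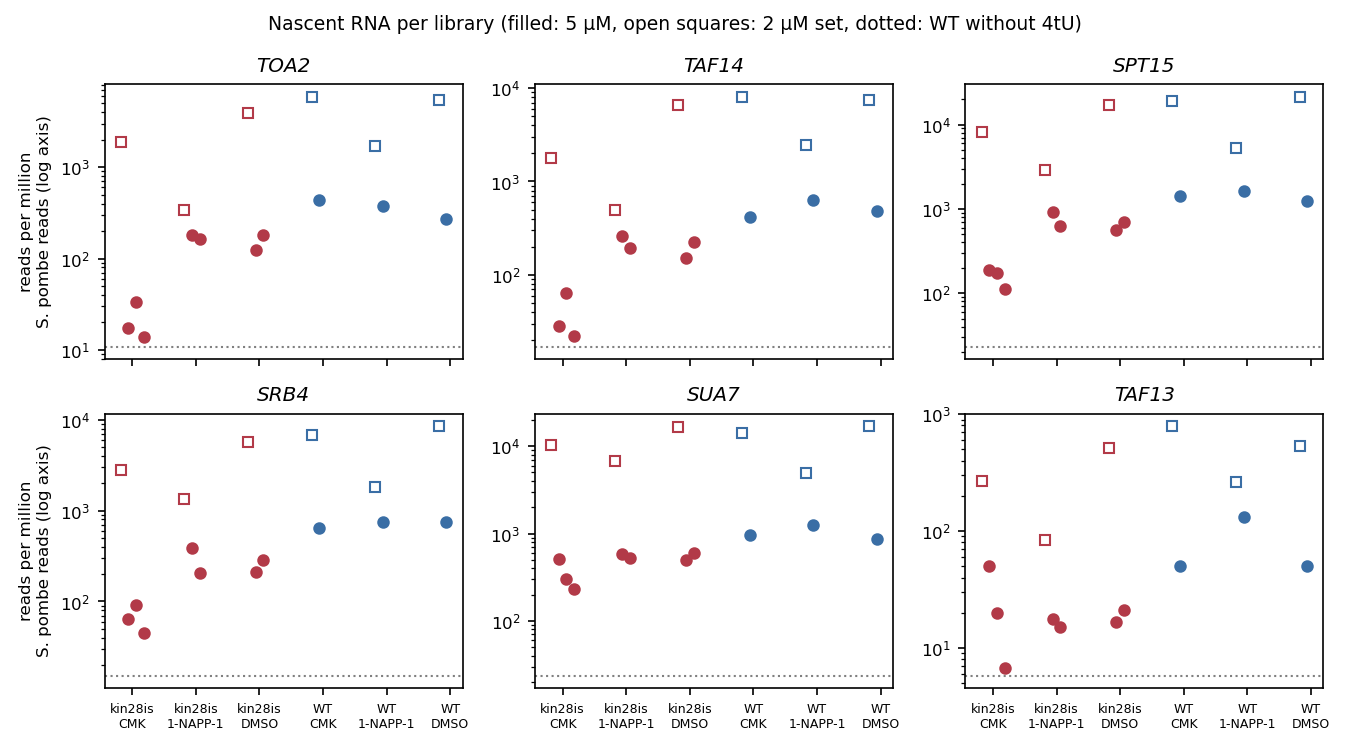
Nascent S. pombe-scaled reads (log axis) of 6 genes in every kin28is (red) and WT (blue) library. Filled circles are 5 µM libraries, open squares the replicate 1 set at 2 µM, and the dotted line the WT DMSO library without 4tU. TOA2, TAF14, SPT15 and SRB4 show the 3 kin28is CMK libraries at 5 µM below all other 5 µM libraries, and SUA7 and TAF13 do not. The open squares lie above the filled circles of the same group.

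CMK and 1-NAPP-1 were compared in kin28is cells at the matched dose of 5 µM, 3 libraries against 2. CMK libraries were the lower ones for 35 of 45 genes and the higher ones for 0, where 74.7% of all genes were lower and 0.0192% higher. The members' median difference was -1.91, against -1.85 for all genes, and turned to 0.32 with the 2 µM libraries included. TOA2 gave 17.5, 33.4 and 14.0 S. pombe-scaled reads with CMK, against 182 and 162 with 1-NAPP-1. That was the smallest p among the members, at -3.03 ± 0.64 (adjusted p = 4.3e-05), with no overlap. SSN2 (-2.54 ± 0.57, adjusted p = 8.7e-05), TFA1, the large subunit of TFIIE (-2.38 ± 0.56, adjusted p = 0.000158), and SPT15 (-2.33 ± 0.54, adjusted p = 0.000164) followed, and SRB4 differed by -2.18 ± 0.59 (adjusted p = 0.000866). SUA7 differed by -0.70 ± 0.55 and was not called (adjusted p = 0.228). Relative to other S. cerevisiae genes 0 members were called (4 higher and 2 lower at an unadjusted p under 0.05), where 1.13% of genes were called lower and 0.807% higher, and without 1-NAPP-1 replicate 2, a library of 517887 reads, 10 were.

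1-NAPP-1 against DMSO called 0 of 45 genes in kin28is cells at 5 µM (0 at an unadjusted p under 0.05, and 0 by DESeq2), where 0.192% of all genes rose. SPT15 changed by 0.30 ± 0.59, SUA7 by 0.02 ± 0.60 and SRB4 by 0.23 ± 0.64. These errors are wide and do not show that the genes were unaffected.

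WT cells carry the natural kinase, and at 5 µM each WT treatment had 1 nascent library, assumed in the fit to vary like the other groups. CMK called 0 of 45 genes (0 at an unadjusted p under 0.05, and 0 by DESeq2), with a median of 0.17, and 1-NAPP-1 also 0 of 45 (0 and 0), with a median of 0.19. For both, 0.0767% of all genes were called lower. SPT15 gave 1405 S. pombe-scaled reads with CMK and 1614 with 1-NAPP-1, against 1235 with DMSO, and its changes were 0.20 ± 0.84 with each inhibitor. SUA7 changed by 0.18 ± 0.85 with CMK and by 0.38 ± 0.85 with 1-NAPP-1, and SRB4 by -0.22 ± 0.89 and -0.19 ± 0.89.

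The CMK response of kin28is cells was also set directly against that of WT cells, and kin28is was set against WT with DMSO alone. In both comparisons most genes tested had values below 0, with a 75th percentile of all genes of -1.39 and -0.95. The counts of members below 0 are to be read beside that. Of the 45 genes 44 had a more negative change in kin28is, with a median difference of -1.87 (all genes -1.91, and 0.06 for the members relative to other S. cerevisiae genes), and 0 passed with edgeR (15 at an unadjusted p under 0.05, and 9 called by DESeq2), where 0.288% of all genes were called lower. SPT15 differed by -2.22 ± 1.01 (adjusted p = 0.129), SRB4 by -1.73 ± 1.07 (adjusted p = 0.198) and SUA7 by -0.86 ± 1.01 (adjusted p = 0.466). With DMSO alone 44 of 45 genes had lower fitted values in kin28is than in WT, with a median of -1.19 (all genes -1.27, and 0.11 for the members relative to other S. cerevisiae genes), and 0 passed (10 at an unadjusted p under 0.05, 5 by DESeq2), where 0.441% of genes did. SPT15 stood at 567 and 706 S. pombe-scaled reads in kin28is DMSO libraries, against 1235 in the WT DMSO library, a difference of -1.02 ± 0.71, and SRB4 differed by -1.65 ± 0.75 and SUA7 by -0.69 ± 0.72.

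In total RNA, the standing pool of transcripts, few members were called. In kin28is cells CMK lowered 1 of the 45 genes against DMSO per S. pombe RNA and raised none, where 2.05% of 5225 genes fell and 0.306% rose (2 libraries per group, with the dose set as a term in the fit). The members' median was 0.21, and that of all genes 0.17. The gene was TOA2, at -1.73 ± 0.50 (adjusted p = 0.0309), 3.32-fold lower. SPT15 changed by -0.80 ± 0.34 (adjusted p = 0.199), SUA7 by 0.33 ± 0.34 (adjusted p = 0.651) and SRB4 by 0.26 ± 0.47 (adjusted p = 0.804). The TOA2 call was lost without the dose set term (adjusted p = 0.9998) and with S. pombe totals without TMM factors (adjusted p = 0.211). DESeq2 gave it no adjusted p. It was also lost without either CMK library, at adjusted p = 0.382 without replicate 1 and 0.762 without replicate 2, and its lowest adjusted p over the alternatives was 0.000446, without DMSO replicate 2.

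Relative to the other S. cerevisiae genes, the spread between libraries was smaller. This scale sets the typical gene near 0 (median of all genes 0.01), so values on both sides of 0 are built into it. By this measure, added after the data had been examined, CMK lowered 9 of the 45 genes and raised 5 in kin28is total RNA, where 20.4% of 5216 genes fell and 18.2% rose. The split was 4 lower and 8 higher with S. cerevisiae totals in place of TMM factors. TOA2 stood at 33.3 and 39.2 CPM with CMK, against 112 and 108 CPM with DMSO. It was 3.73-fold lower, at -1.90 ± 0.19 (adjusted p = 0.0018), and kept its call under all 8 alternatives tried for it, with adjusted p between 8.82e-13 and 0.0292. TAF14 stood at 79.7 and 103 CPM with CMK, against 172 and 192 CPM with DMSO, and fell 2.46-fold (-1.30 ± 0.17, adjusted p = 0.00236). SPT15 stood at 291 and 272 CPM with CMK, against 425 and 491 CPM with DMSO, and fell 1.99-fold (-0.995 ± 0.24, adjusted p = 0.0132). None of these 3 genes had overlapping groups. The single WT DMSO total library without 4tU gave 240 CPM for SPT15, below both CMK libraries although it had no inhibitor. For TOA2 (93.9 CPM) and TAF14 (181 CPM) that library lay above both CMK libraries.

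The other 6 genes that fell were MED11 of the head (-0.93), SRB7 of the middle (-0.88), TFA2, the small subunit of TFIIE (-0.73), and the histone-fold subunits TAF6 (-0.70), TAF9 (-0.67) and TAF10 (-0.51). The genes that rose were TAF7 (1.16 ± 0.22, adjusted p = 0.00556), TAF2 (0.66 ± 0.16, adjusted p = 0.0143), whose coding sequence overlaps YCR041W on the other strand by 70 bases, SSN2 (0.63 ± 0.22, adjusted p = 0.0428), SRB8 (0.54 ± 0.18, adjusted p = 0.0384) and TAF1 (0.41 ± 0.14, adjusted p = 0.0444). TAF7 stood at 121 and 178 CPM with CMK, against 58.7 and 48.9 CPM with DMSO, so that each CMK library was well above both DMSO libraries. WT cells at 5 µM were high too: TAF7 stood at 107 CPM with CMK and 106 CPM with 1-NAPP-1, against 49.8 CPM with DMSO, whereas at 2 µM it stood at 67.5 and 57.6 CPM, against 65.8 CPM. SSN2 (197 and 197, against 108 CPM) and SRB8 (176 and 175, against 117 CPM) were also higher in WT at 5 µM. The single WT DMSO library without 4tU, which had no inhibitor, lay above all these WT values. It gave 136 CPM for TAF7, 256 CPM for SSN2 and 226 CPM for SRB8, and the difference was not tested. Per S. pombe reads the WT log2 ratios of CMK over DMSO at 5 µM were 1.68 for TAF7, 1.45 for SSN2 and 1.18 for SRB8, against 0.93 for the median gene. With 1-NAPP-1 they were 1.55, 1.33 and 1.04, against 0.84. Relative to other genes, 0 of the 45 members differed between kin28is and WT in their CMK response in total RNA (5 lower and 2 higher at an unadjusted p under 0.05), where 0.0192% of genes were called lower. TAF7 differed by 0.74 ± 0.31 (adjusted p = 0.314), SSN2 by 0.39 ± 0.31 (adjusted p = 0.597) and TOA2 by -1.70 ± 0.26 (adjusted p = 0.0863). SUA7 changed by 0.11 ± 0.25 (adjusted p = 0.739) and SRB4 by 0.12 ± 0.14 (adjusted p = 0.488). The count of 14 fell to 2 without DMSO replicate 2, to 3 without CMK replicate 2 and to 9 without CMK replicate 1.

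The genes that fell were abundant and those that rose were scarce. In WT DMSO total RNA the 9 that fell stood at 80.1 RPKM (TAF6) or more and the 5 that rose at 56.2 RPKM (TAF1) or less. Across the 45 genes the relative change in total RNA ran against the level in WT DMSO total RNA (r = -0.77, rho = -0.80), and so it did across 5107 genes (r = -0.76, rho = -0.84). These are correlations across genes of the same libraries, which share depth and are not independent. Among the related lists RNA polymerase II subunit genes fell in 8 of 12 (median -0.78) and TBP regulators in 2 of 3 (-0.62), SAGA genes in 0 of 14 with 0 rising (0.05), and TFIIH genes rose in 2 of 11 (0.16).

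**Figure D3:**
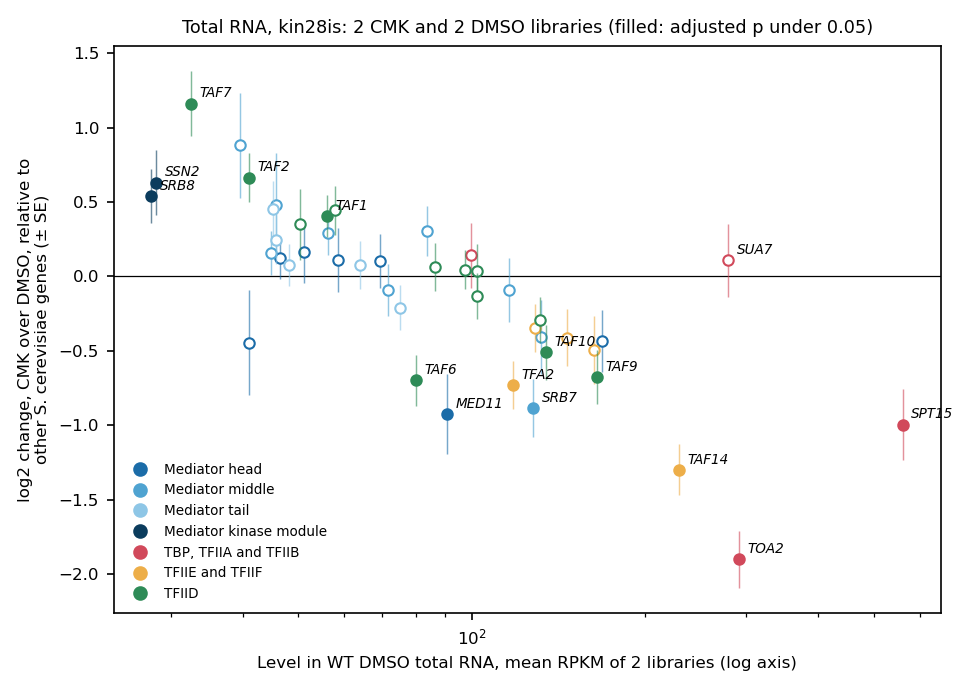
Change of each gene in kin28is total RNA with CMK over DMSO, relative to other S. cerevisiae genes (log2 ± SE, 2 CMK and 2 DMSO libraries), against its level in WT DMSO total RNA (mean RPKM of 2 libraries, log axis). Filled points have an adjusted p under 0.05. Abundant genes such as TOA2 (-1.90) and SPT15 (-0.995) lie at the lower right and scarce ones such as TAF7 (1.16) at the upper left, with SUA7 (0.11) apart from its neighbours in level.

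Against 1-NAPP-1, CMK lowered 2 of the 45 genes in kin28is total RNA per S. pombe RNA, where 4% of all genes fell. They were TOA2 (-1.70 ± 0.50, adjusted p = 0.0224) and SPT15 (-1.09 ± 0.35, adjusted p = 0.0418). SPT15 stood at 291 and 272 CPM with CMK, against 463 and 489 CPM with 1-NAPP-1, and TOA2 at 33.3 and 39.2 CPM, against 87.1 and 99.0 CPM. Both genes were lower in both libraries, but 0 calls were left when any 1 of the 4 libraries was left out. SUA7 differed by -0.14 ± 0.34 and SRB4 by -0.10 ± 0.47. The relative measure called 6 lower and 1 higher, where 12.3% and 3.07% of genes were.

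The remaining comparisons in total RNA called 0 of 45 genes with edgeR and 0 with DESeq2. They were 1-NAPP-1 against DMSO in kin28is (0% of genes called), CMK and 1-NAPP-1 against DMSO in WT (0% each), the CMK response of kin28is against WT (0.44% called lower) and kin28is against WT with DMSO (0%). At an unadjusted p under 0.05 the counts were 0, 0, 0, 2 and 0. SPT15 changed by 0.29 ± 0.34, 0.01 ± 0.34, -0.10 ± 0.34, -0.80 ± 0.48 and -0.06 ± 0.34 in these 5 comparisons. SUA7 changed by 0.46 ± 0.34, -0.02 ± 0.35, -0.03 ± 0.35, 0.35 ± 0.49 and 0.15 ± 0.34 in the same order, and SRB4 by 0.36 ± 0.47, 0.20 ± 0.48, 0.11 ± 0.47, 0.06 ± 0.67 and -0.15 ± 0.47. In WT cells TOA2 stood at 113 and 98.2 CPM with CMK, against 105 and 110 CPM with DMSO, and those groups overlapped.

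WT cells also allowed nascent and total RNA of the same labelled cultures to be compared, 6 libraries each, relative to other S. cerevisiae genes. Of the 45 genes 19 were higher in nascent than in total RNA and 6 lower, where 28.7% of 5224 genes were higher and 27.2% lower. The members' median was 0.17, against 0.01 for all genes. Tail genes led: NUT1 (1.05 ± 0.14, adjusted p = 8.9e-05) and SIN4 (0.92 ± 0.13, adjusted p = 0.000103) were higher, as were 4 of 5 in that class, with SRB4 (0.71 ± 0.10, adjusted p = 0.00011) and the middle scaffold gene RGR1 (0.76 ± 0.12, adjusted p = 0.000188). Lower were TAF7 (-0.86 ± 0.14, adjusted p = 0.000386), TAF10 (-0.84 ± 0.15, adjusted p = 0.000596), TOA1 (-0.87 ± 0.18, adjusted p = 0.00125), TAF13 (-1.004 ± 0.21, adjusted p = 0.00128), SRB2 (-1.37) and MED7 (-0.38). SPT15 (-0.04 ± 0.12) and SUA7 (0.07 ± 0.12) were not called. The values are shares, not rates, and per S. pombe RNA 40 of 45 were called, all higher, where 79.2% of 5213 genes were called higher and 0.537% lower. On that scale the members' median was 2.05 and that of all genes 1.90.

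Longer genes had the higher shares in nascent RNA. The log2 nascent over total value followed the log2 coding length across the 45 genes (r = 0.56, rho = 0.64) and across 5111 genes (r = 0.39, rho = 0.45). With the number of T bases in the coding sequence, the sites where 4tU can enter, the values were r = 0.60 and rho = 0.68 for the members and r = 0.39 and rho = 0.45 for all genes. Length and T count rise together, and these points come from the same 12 libraries. Both members with an intron, SRB2 and TAF14, were counted like the rest, and SRB2 had 84 and 2 reads in the nascent WT DMSO libraries.

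**Figure D4:**
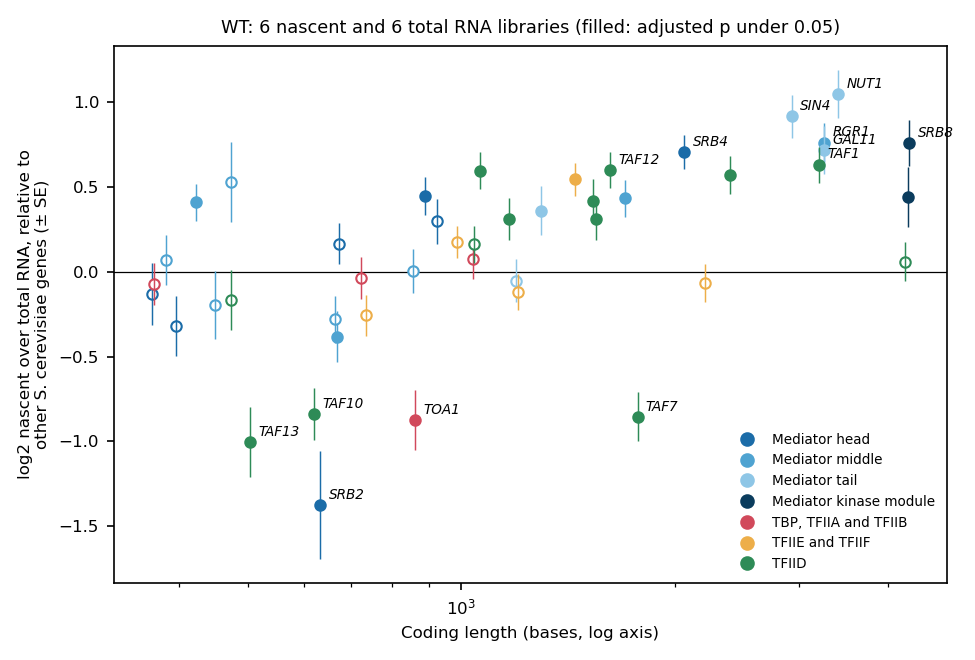
Nascent over total RNA in WT cells for each of the 45 genes, relative to other S. cerevisiae genes (log2 ± SE, 6 nascent and 6 total libraries), against coding length (bases, log axis). Filled points have an adjusted p under 0.05. The long tail, scaffold and kinase module genes lie above 0, up to NUT1 at 1.05, and SRB2 lies lowest at -1.37.

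The kin28as strain and the 2 µM set had single libraries, so the values below are descriptions with no test, per S. pombe reads, and a gene counts where it differs at least 2-fold. In nascent RNA of kin28as cells 45 of 45 genes were at least 2-fold lower with 2 µM 1-NAPP-1 than with DMSO, as were 96.7% of 5139 genes. The members' median log2 ratio was -1.70 and that of all genes -1.94, and the members ranged from -3.22 for SRB2 to -1.07 for TAF7. In kin28is cells 45 of 45 were lower with the same dose of 1-NAPP-1 (99.1% of genes), with a median of -2.53 against -2.80 for all genes. WT cells showed it too, with 43 of 45 lower (95.1% of genes) and a median of -1.84 against -1.81. With CMK at 2 µM 36 of 45 were lower in kin28is cells (83.7% of genes, median -1.17) and 0 in WT cells (0.368% of genes, median -0.13). At 5 µM the pairs with 1-NAPP-1 had medians of 0.71 and -0.35 in kin28is and 0.37 in WT.

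In the 2 µM libraries of both mutants SUA7 took a larger share of budding yeast RNA with 1-NAPP-1. It stood at 720 CPM in nascent RNA of kin28as cells with 1-NAPP-1, against 397 CPM with DMSO, and at 1437 CPM in kin28is cells with 2 µM 1-NAPP-1, against 513 CPM with DMSO. In WT cells it stood at 385 CPM, against 381 CPM. At 5 µM the kin28is values overlapped, at 288 and 403 CPM with 1-NAPP-1, against 417 and 348 CPM with DMSO. Total RNA of kin28is cells gave 544 CPM with 1-NAPP-1 at 2 µM, against 354 CPM with DMSO, and 339 CPM at 5 µM, against 402 CPM. The kin28as pair in total RNA gave 479 CPM with 1-NAPP-1, against 277 CPM with DMSO. TOA2 in the same total RNA pair stood at 72.5 CPM with 1-NAPP-1, against 113 CPM with DMSO, and TAF7 at 92.4 CPM, against 39.6 CPM. TAF14 stood at 113 CPM, against 146 CPM. Of the 9 genes that fell with CMK in kin28is total RNA, 3 had lower CPM in this pair (TOA2, TAF14 and MED11) and 6 higher. SPT15 was among the 6, at 327 CPM with 1-NAPP-1, against 322 CPM with DMSO. The median RPKM of all open reading frames was also higher with 1-NAPP-1, at 71.8, against 54.6 with DMSO. Per S. pombe reads all 9 lay below the median log2 ratio of all genes (0.13). They ran from -0.90 for TOA2 to 0.03 for TFA2, with SPT15 at -0.24. All 5 genes that rose there had higher CPM in this pair, as did most of the 45 members. Those 5 also lay above that median, as 25 of the 45 members did.

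**Figure D5:**
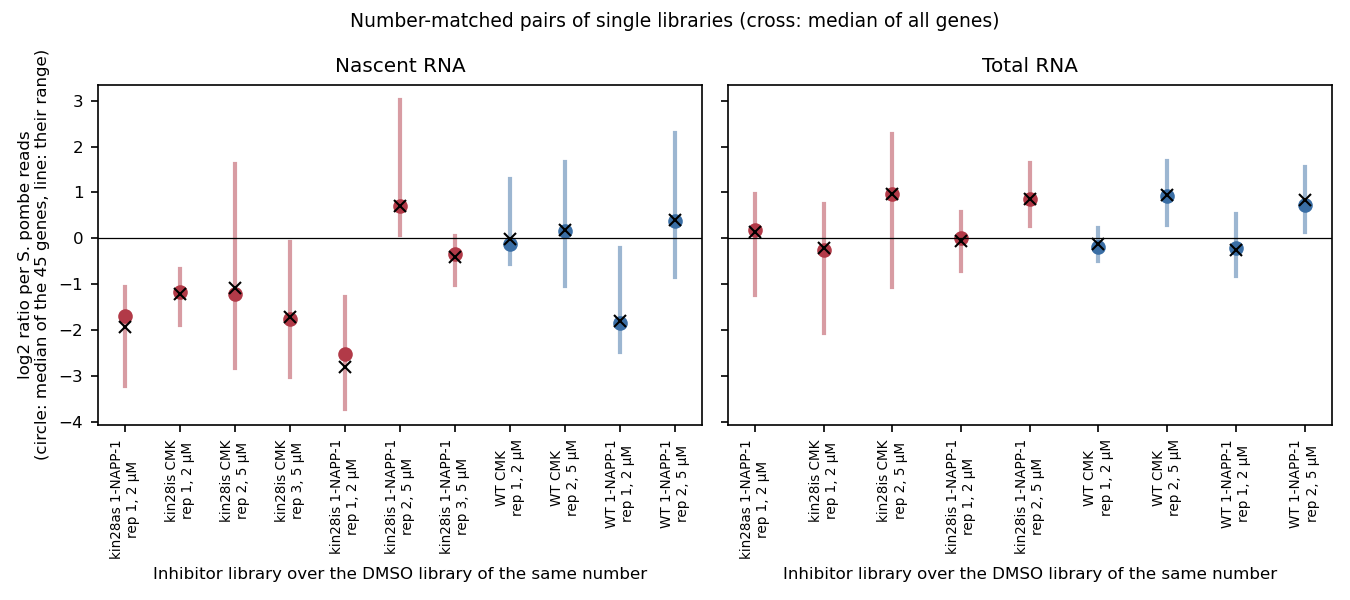
Log2 ratio per S. pombe reads of each inhibitor library over the DMSO library of the same replicate number, in nascent RNA (left) and total RNA (right). Circles are the median of the 45 genes, lines their range, and crosses the median of all genes, with kin28as and kin28is in red and WT in blue. Circle and cross lie close together in each pair, from -2.53 and -2.80 for kin28is 1-NAPP-1 at 2 µM to 0.96 and 0.96 for kin28is CMK in total RNA at 5 µM.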

How the data were processed

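Read counts per gene for both yeasts were deposited by the authors as 1 table of 34 libraries holding 5143 genes of S. pombe, plus 5368 open reading frames and 22 LTR elements of S. cerevisiae, with rRNA depleted and 100 bp reads sequenced per the labels' protocols. The submitters' processing notes list STAR 2.3.0, CASAVA 1.8.2, sacCer3 and HTSeq 0.6.0 with no role or order, and strandedness of the counting was not given in them. From the counts, edgeR 4.0.16 (R 4.3.3) quasi-likelihood fits used S. pombe totals as library sizes with TMM factors from S. pombe genes, the filterByExpr filter (minimum count 10) and Benjamini-Hochberg adjusted p-values over all S. cerevisiae genes tested at 0.05. The nascent fit took the 10 libraries at 5 µM, and the total fit 12 libraries with the labelled dose set as a term. WT nascent against total and the relative values used TMM factors from S. cerevisiae genes.

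Alternatives were DESeq2 1.42.0, other scalings, no low-count filter, the replicate block and leaving out libraries. The members, the gene lists and the tests were chosen with earlier results of these data known. SPT15, SUA7 and SRB4 were named in each edgeR comparison. Beside them were named, in nascent CMK against DMSO, the ends of each class and every gene not called, and elsewhere up to 4 called genes per direction by p. Other genes named with values were chosen after their values were seen. On simulated counts with 100 changed genes the nascent fit called 2 at a log2 change of 1. At a log2 change of 2 it called 43 of 99. The total RNA fit called 10 and 63 of 100, so smaller changes can be missed. Few of the 5203 genes in the nascent simulation were changed, whereas most genes fell in the nascent CMK data. The cutoff set by the adjustment differs with that share, so these rates do not apply to that comparison. Correlations across genes are descriptions. Precision is limited by read number, lowest for short and scarce genes: 14 of 1530 member values were under 10 reads.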

Additional observations from a re-analysis of the deposited data

Results flagged for a closer look

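Within the 4 kin28is CMK nascent libraries, replicate 1 stood apart in 2 values. TAF12 had 386.1 CPM there, and the 45 genes together had 122875.3 S. pombe-scaled reads, each farther from the other 3 libraries than Dixon's limit for 4 samples allows. Replicate 1 received 2 µM and the others 5 µM. Budding yeast reads per fission yeast read were 13.9 in that CMK library, against 0.513, 0.509 and 0.277 in the others. The sum is thus not particular to the 45 genes. With DMSO the ratio was also higher in replicate 1, at 32.2, against 1.21 and 1.72. All 45 genes were looked at in the 4 CMK libraries, and chance alone sets apart about 1 in 20 such groups.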

How the results depend on the processing

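Counts of called members moved by more than 1.5 times as follows, and the cause was not tested. For CMK against DMSO in nascent kin28is RNA, 34 became 21 with the replicate block, 0 with S. cerevisiae scaling, 0 with all 16 nascent libraries, and 0 with all 16 and the block, and 2 to 37 with 1 library left out (2 without DMSO replicate 3). For CMK against 1-NAPP-1, 35 became 0, 0 and 0 with S. cerevisiae scaling, all 16 libraries, and all 16 with the block, and 10 to 39 with 1 left out. DESeq2 called 9 for the nascent CMK response and 5 for kin28is against WT with DMSO, and leaving out 1 library gave 0 to 1 for the response in nascent and in total RNA. For CMK against DMSO in total kin28is RNA, 1 became 0 without the block, 0 without TMM factors, 14 with S. cerevisiae scaling and 0 to 6 with 1 left out. Against 1-NAPP-1, 2 became 0, 0 and 7 in the same order, and 0 to 0 with 1 left out. The relative count of 14 was 2 to 13 with 1 left out. WT nascent against total gave 40 per S. pombe RNA and 21 to 23 with 1 left out. Nascent samples of the same number correlated above 0.1 in 5 of 6 pairs at 5 µM (lowest 0.05) and in 33 of 33 pairs once the 2 µM set was included, where the number also marks the dose (median 0.45, against -0.27 for other numbers). Leaving out the lone WT libraries at 5 µM gives no value.

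Scaled to other S. cerevisiae genes, the log2 changes of SUA7 0.99, MED6 0.85, NUT2 0.54, PGD1 0.44, MED11 0.040, CSE2 0.39, TOA1 0.50, TAF7 0.71 and TAF11 0.45 turned for CMK against DMSO in nascent kin28is RNA. SUA7 -0.13 and SRB4 -0.0047 did so for 1-NAPP-1 against DMSO in nascent kin28is RNA. SUA7 1.11 did so for CMK against 1-NAPP-1 in nascent kin28is RNA. SPT15 -0.0037 did so for 1-NAPP-1 against DMSO in nascent WT RNA. SUA7 0.98 and SRB4 0.17 did so for the nascent CMK response of kin28is against WT. SPT15 0.30 and SUA7 0.63 did so for nascent kin28is against WT with DMSO. SPT15 -0.052 did so for 1-NAPP-1 against DMSO in total kin28is RNA. SUA7 0.023 and SRB4 0.044 did so for CMK against 1-NAPP-1 in total kin28is RNA. SPT15 -0.31 and SRB4 -0.11 did so for CMK against DMSO in total WT RNA. SRB4 -0.11 did so for 1-NAPP-1 against DMSO in total WT RNA. SPT15 0.18 and SRB4 0.024 did so for total kin28is against WT with DMSO. With S. cerevisiae totals and no TMM factors, the log2 changes of SPT15 0.062 turned for nascent against total WT RNA. Scaled to S. pombe RNA, the log2 changes of SPT15 1.83, TAF7 1.07, TAF10 1.00, TOA1 0.91 and TAF13 0.90 turned for nascent against total WT RNA. With S. pombe totals and no TMM factors, the log2 changes of SUA7 0.083 turned for CMK against DMSO in total WT RNA. SUA7 0.051 did so for 1-NAPP-1 against DMSO in total WT RNA. With the 2 µM libraries included (16 in all), the log2 changes of TAF13 -1.07 turned for CMK against DMSO in nascent kin28is RNA. SPT15 -2.02, SUA7 -1.17 and SRB4 -1.69 did so for 1-NAPP-1 against DMSO in nascent kin28is RNA. The median 0.32, SPT15 0.53, SUA7 0.14, SRB4 0.23, TOA2 1.09, SSN2 0.31 and TFA1 0.26 did so for CMK against 1-NAPP-1 in nascent kin28is RNA. SPT15 -0.079 and SUA7 -0.15 did so for CMK against DMSO in nascent WT RNA. SPT15 -1.67 and SUA7 -1.49 did so for 1-NAPP-1 against DMSO in nascent WT RNA. With all 16 and the replicate block, the log2 changes of SPT15 -0.50, SUA7 -0.48 and SRB4 -0.56 turned for 1-NAPP-1 against DMSO in nascent kin28is RNA. SPT15 -0.60 and SUA7 -0.42 did so for 1-NAPP-1 against DMSO in nascent WT RNA. Without the replicate block, the log2 changes of SPT15 -0.17 and SRB4 -0.040 turned for CMK against DMSO in total WT RNA. SRB4 -0.072 did so for 1-NAPP-1 against DMSO in total WT RNA. SPT15 0.033 did so for total kin28is against WT with DMSO.

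With 1 library left out at a time, the log2 changes whose sign turned ranged as follows. CMK against DMSO in nascent kin28is RNA gave TAF13 -0.60 to 0.91. 1-NAPP-1 against DMSO in nascent kin28is RNA gave SUA7 -0.11 to 0.13, SPT15 -0.057 to 0.54 and SRB4 -0.35 to 0.62. CMK against DMSO in total kin28is RNA gave SRB4 -0.24 to 0.91. 1-NAPP-1 against DMSO in total kin28is RNA gave SRB4 -0.13 to 1.01. CMK against 1-NAPP-1 in total kin28is RNA gave SUA7 -0.46 to 0.26 and SRB4 -0.21 to 0.013. CMK against DMSO in total WT RNA gave SUA7 -0.45 to 0.33, SPT15 -0.46 to 0.38 and SRB4 -0.39 to 0.66. 1-NAPP-1 against DMSO in total WT RNA gave SUA7 -0.41 to 0.29 and SRB4 -0.28 to 0.45. The total RNA CMK response of kin28is against WT gave SRB4 -0.41 to 0.74. Total kin28is against WT with DMSO gave SRB4 -0.80 to 0.34, SUA7 -0.067 to 0.34 and SPT15 -0.36 to 0.21. Nascent against total WT RNA gave SPT15 -0.088 to 0.041. Relative CMK against DMSO in total kin28is RNA gave SUA7 -0.20 to 0.44.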

Other observations

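In total RNA of WT DMSO cultures the single library without 4tU gave 136 CPM for TAF7, against 65.8 and 49.8 CPM with 4tU, and 239.6 CPM for SPT15, against 404 and 408 CPM with 4tU. These differences were not tested.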
